A study of Homo sapiens with 6 samples.

Results

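Cadherins and protocadherins were described across 6 RNA sequencing libraries of U87-MG, a long-established cell line from a human glioblastoma. The members were the genes of the deposited table whose symbol is CDH or PCDH followed by a number, or that of a clustered protocadherin, which gave 88 of 61806 genes. Of these, 23 are CDH genes, 54 are clustered protocadherins (16 alpha, 16 beta and 22 gamma) and 11 are non-clustered protocadherins. PCDHA14 is a pseudogene and is counted among the alpha genes. The rule uses the gene symbol alone.

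The study asked which transcripts differ when GRIK1, a kainate-type glutamate receptor subunit, is targeted. The 3 negative control (NC) libraries carry the genotype label wildtype, and the other 3 carry the label GRIK1 knockdown and the names siRNA1, siRNA2 and siRNA3. The deposited description names an shRNA, and the labels do not settle whether the 3 names are replicates or siRNA sequences. The text of the study says that a single sequence was carried into later experiments, without saying what each sequenced library received. No dose or time after transfection is given in the sources used here, and nothing states that the libraries came from separate cultures, so p-values measure the spread between these libraries. GRIK1 itself was counted 18, 9 and 8 times in the NC libraries, numbered 1, 2 and 3, against 15, 20 and 20 times in the other 3. As log2(FPKM + 1), a scale that shrinks differences between low values, it was 0.12 higher in the latter (two-sided exact permutation test, p = 0.4, where 0.1 is the smallest p the design allows). The difference was 0.21 without NC library 1 (same permutation test, p = 0.1) and 0.064 without NC library 3. As log2(FPKM + 0.1) with all libraries it was 0.47. In these low counts GRIK1 was therefore not lower in the group named for its knockdown. The study reports an efficient knockdown of GRIK1 in U87-MG cells, shown apart from the sequencing. The group is called here the libraries labelled GRIK1 siRNA, or siRNA libraries 1, 2 and 3.

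The total counts lay between 11099909 and 14006968 per library, of which 5473 to 6026 fell on members. NC library 3 stood apart from the other 5. Its correlation of log CPM across genes with each other library was 0.952 to 0.968, against 0.980 to 0.992 among the remaining libraries, and ribosomal protein genes took 8.45% of its counts against 4.35% to 4.99%. Tested differences of the members and their partner genes are therefore also given without it. Genes with a count numbered 24959, 24993 and 23902 in NC libraries 1, 2 and 3, against 26134, 26881 and 27049 in the siRNA libraries, without overlap. The part of this difference in the values of low members was not tested. Of the glioma line markers VIM, FN1 and CD44 were high, with VIM at 825 to 1076 FPKM in the NC libraries, whereas NES was near 0.5 FPKM. CDKN2A, which is deleted in U87-MG, had at most 2 counts in a library. The 4 endothelial markers summed to 0.03 to 0.11 FPKM and of the leukocyte markers reported here LYZ had 3 to 12 counts in a library, PTPRC had 0 to 5 and CD3E was at 0 in each. Of the 4 astroglial markers, AQP4 was at 0 in each library and SLC1A3 alone reached 0.5 FPKM, and the summed level was 2.72 to 3.57 FPKM in the NC libraries against 2.28 to 2.45 in the others. SLC1A3 fell, with a log2 fold change of -0.68 (edgeR adjusted p = 0.0378), while GFAP had 8 to 13 counts in an NC library and 36 to 39 in each of the others. The part of these markers in the results on cadherins was not tested.

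Cadherins are calcium-dependent adhesion proteins of the cell surface. Classical cadherins bind partners of the same kind on the next cell and are tied to actin through catenins, and a shift from E-cadherin to N-cadherin is a known feature of epithelial cells that become motile. Protocadherins lack the catenin-binding tail. In the alpha and gamma clusters each variable exon has its own promoter and is spliced to constant exons shared by the cluster, and a neuron uses only some of these promoters, while beta genes are single variable exons without a constant part. Non-clustered protocadherins of the delta1 and delta2 groups lie elsewhere in the genome and act in cell sorting and axon growth.

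U87-MG cells expressed a narrow set of members. Of the 88 genes, 70 had at least 1 count in the 6 libraries and 18 had 0 in each of them. A count of 0 in a library allows up to 3 counts, which is 0.214 to 0.270 CPM (counts scaled to the library total) at these depths. A mean of at least 0.5 FPKM (counts scaled to the exonic length of a gene and to the library total) was reached by 14 members. CDH13, or T-cadherin, which is anchored to the membrane by a lipid and has no cytoplasmic tail, held 53.4% of all member counts. The 5 classical type I cadherins held 16.8%, most of it CDH2. The delta1 protocadherins held 7.64%, gamma C genes 5.04% and gamma A genes 4.17%. Each other class held less, from 3.04% for the 13 type II cadherins to 0.0145% for the 16 alpha protocadherins.

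Ordered by mean FPKM, the per-length level, CDH13 stood at 22.5, CDH2 at 8.52, PCDHGC3 at 4.18, PCDH18 at 1.33 and PCDHGA10 at 1.30. PCDH7, CDH24, CDH18, PCDH9, PCDHGA9, CDH23, PCDHB14, PCDHGB2 and PCDHB16 followed between 0.513 and 0.912 FPKM. The ranges of CDH13 and CDH2 over the 6 libraries did not overlap, nor did those of PCDHGC3 and PCDH18. CDH2 and PCDHGC3 overlapped only through CDH2 in NC library 3 (6.14 FPKM) and PCDHGC3 in NC library 1 (6.59 FPKM). From PCDH18 downwards the ranges of neighbours overlapped. The order rests on the deposited exonic sizes, and only 16 of the 88 members have the same coordinates in GENCODE 29. CDH2 has 8583 exonic bases in the deposited table and 4950 in GENCODE 29, by which its level would be 14.8 on the FPKM scale.

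**Figure D1:**
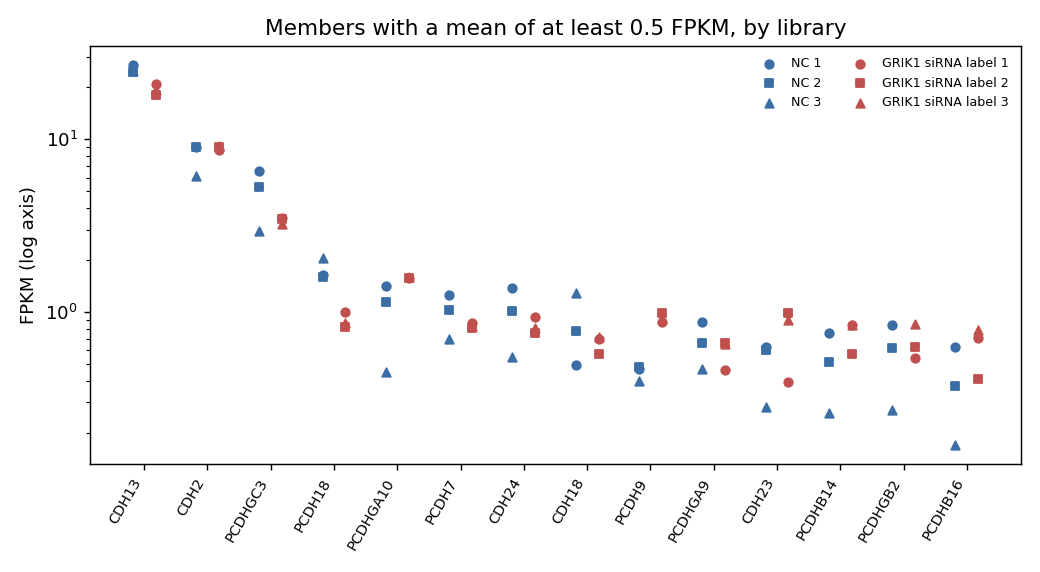
FPKM of the 14 members with a mean of at least 0.5 FPKM, on a log axis, with 1 point per library (blue, NC; red, libraries labelled GRIK1 siRNA; the shape gives the library number). CDH13 lay at 18.2 to 27.0 FPKM in the 6 libraries, above each other member.

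For the comparison between groups, counts were scaled by the TMM method and tested with the quasi-likelihood test of edgeR over all genes whose mean reached 0.5 FPKM, with Benjamini-Hochberg adjustment over all of them. Values per library are given as normalised CPM, which serve to compare a gene between libraries and not genes with each other. The adjusted p was under 0.05 for 2 of the 14 members tested, against 3.08% of the 15870 genes tested. PCDH9 rose and PCDH18 fell. The NC means of PCDH9, given below, and of PCDHB16 (0.39 FPKM) lay under 0.5 FPKM. These 2 members reached the filter only through the siRNA libraries. Neither call held in limma-trend on log2(FPKM + 1), where the adjusted p was 0.0930 for PCDH9 and 0.0624 for PCDH18. With an absolute log2 fold change over 1 as well, only PCDH18 remained, beside 1.41% of all genes. An unadjusted p under 0.05 was found for 4 of the 14 members and for 25.1% of all genes. The median log2 fold change was -0.08 over the 14 members, with 7 above 0, and -0.02 over all genes, of which 48.6% lay above 0. The 3 values of one group lay entirely above those of the other for 4 of the 14 members (CDH13, PCDH18, PCDHGA10 and PCDH9), which is no larger a share than the 38.4% of all genes.

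Because many members are low, the same test was also run after filterByExpr of edgeR, which keeps genes by counts and not by length and left 33 members. A low gene can pass this filter through the group where it is high. PCDHGB6 and PCDHGA5, given below, did so through the siRNA libraries. PCDHGA6, PCDHB13 and PCDHB16 did so as well, since NC library 3 fell short of the filter. PCDH9 and PCDH18 passed again, 2 of 33 members, against 3.91% of 15845 genes. The median log2 fold change of the 33 members was 0.08, with 18 above 0, against -0.03 over all genes, of which 47.7% lay above 0. Without NC library 3 it was -0.13 for the 33, with 14 above 0, against -0.002 and 49.8% for all genes. Groups did not overlap, with the siRNA libraries higher, for 7 of the 33 members against 20.3% of the genes, and with them lower for 3 against 19.7%. Without NC library 3 the spread between libraries was far smaller, with a common dispersion of 0.00298 in place of 0.0391. The adjusted p was then under 0.05 for 5 of 14 members against 35.2% of all genes, and for 7 of 33 against 37.1% after filterByExpr.

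**Figure D2:**
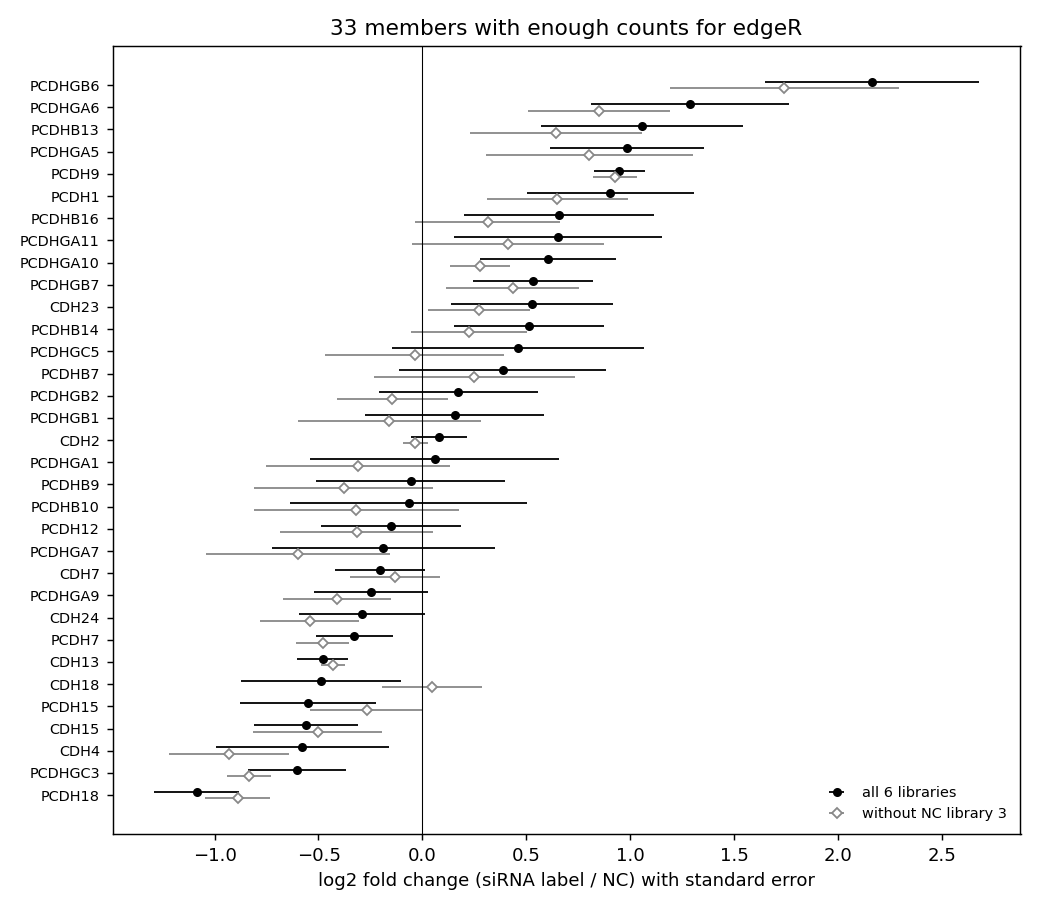
Log2 fold change (libraries labelled GRIK1 siRNA over NC) of the 33 members left by filterByExpr, with 1 standard error, from all 6 libraries (black) and without NC library 3 (open grey). PCDHGB6, at 2.17, and PCDH18, at -1.09, are the ends of the range, and the values without NC library 3 were lower for most of the clustered genes.

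PCDH9, a delta1 protocadherin known from the nervous system, was the member with the clearest rise. The deposited position, in GRCh38, is chromosome 13, 66302834 to 67230445, on the minus strand. Its normalised CPM was 14.4, 14.8 and 13.9 in the 3 NC libraries, whereas it was 26.3, 29.8 and 27.5 in the siRNA libraries. Every siRNA library lay above every NC library, and NC library 3 was no exception here. The mean rose from 14.4 ± 0.454 to 27.8 ± 1.79 normalised CPM (SD, n = 3 each), and the log2 fold change was 0.95 ± 0.12 (SE; edgeR adjusted p = 0.0240), just under the fold threshold. The summed counts, 1097 against 503, gave a ratio of 1.94 after scaling to effective library size (exact 95% interval 1.74 to 2.16, counting error only). These are bulk libraries, in which more cells that express a gene and more RNA per cell cannot be told apart. Without NC library 3 the log2 fold change was 0.93. Leaving out any other library left the log2 fold change at 0.90 to 0.99 while the edgeR adjusted p rose to between 0.0641 and 0.205. Of the 4 neuronal markers, which summed to 1.91 to 2.81 FPKM in the NC libraries against 2.47 to 2.62 in the others, SYT1 had 27, 45 and 17 counts against 55, 67 and 71, and RBFOX3 had 11, 18 and 17 against 28, 26 and 44. SNAP25 lay the other way, with 485, 457 and 447 against 390, 378 and 391, and STMN2 had at most 1. The part of these markers in the PCDH9 difference was not tested. Genes on the opposite strand, PCDH9-AS1 to PCDH9-AS4, had 0 counts in each library. The level of PCDH9 stayed low, at 0.45 ± 0.0436 FPKM in the NC libraries against 0.927 ± 0.0569 FPKM in the others. It therefore reached the mean of 0.5 FPKM asked for by the filter only through the siRNA libraries.

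PCDH18, a delta2 protocadherin, moved the other way. Its position is chromosome 4, 137518918 to 137532494, minus strand. Its normalised CPM was 10.8, 10.6 and 15.4 in the NC libraries against 6.49, 5.30 and 5.60 in the siRNA libraries. The groups did not overlap, and NC library 3 was the highest of the 6. The mean fell from 12.3 ± 2.68 to 5.79 ± 0.618 normalised CPM (SD, n = 3 each), with a log2 fold change of -1.08 ± 0.20 (SE; edgeR adjusted p = 0.0416). The ratio of the summed counts was 0.468 (0.397 to 0.550). Without NC library 3 the log2 fold change was -0.89, with an edgeR adjusted p of 0.000254, and its size was then under the fold threshold. Leaving out any of the other 5 libraries left it at -1.18 to -1.02, with an edgeR adjusted p of 0.0677 to 0.233.

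CDH13 carried the largest number of counts. It lies on the plus strand of chromosome 16 from 82626965 to 83800640. Its normalised CPM was 293, 269 and 309 in the NC libraries against 223, 194 and 209 in the siRNA libraries. The groups did not overlap, with means of 290.3 ± 20.1 and 209 ± 14.5 (SD, n = 3 each), yet the log2 fold change of -0.48 ± 0.12 did not pass the test (edgeR adjusted p = 0.0783). It passed without NC library 3, at -0.43 (edgeR adjusted p = 1.44e-05), and in DESeq2, at -0.47 (adjusted p = 0.00848). As levels, CDH13 stood at 25.5 ± 1.31 FPKM in the NC libraries against 19.5 ± 1.38 FPKM in the others. CDH13-AS1 on the opposite strand was counted 4, 1 and 0 times in the NC libraries against 2, 13 and 11 times in the siRNA libraries, against 2526 to 3860 for CDH13.

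CDH2, the N-cadherin of neural and mesenchymal cells, is found at 27932879 to 28177946 on chromosome 18, minus strand. Its normalised CPM was 76.2, 76.7 and 59.0 in the NC libraries against 71.9, 75.4 and 76.9 in the siRNA libraries. NC library 3 was the lowest, and the other 5 lay between 71.9 and 76.9. The log2 fold change was 0.08 ± 0.14 (edgeR adjusted p = 0.732), and -0.03 without NC library 3. CDH1, or E-cadherin, had 7, 9 and 8 counts in the NC libraries against 9, 7 and 8 in the siRNA libraries, a mean level of 0.105 FPKM. Its ratio of summed counts, scaled to effective library size as all such ratios here, was 0.888, with an interval from 0.483 to 1.63, so a change of either sign within that range was not detectable at this depth. The 4 epithelial markers, CDH1 among them, summed to 1.09 to 1.94 FPKM in the NC libraries against 1.58 to 2.28 in the others. Most of this was EPCAM, with 27, 46 and 31 counts against 61, 64 and 46, while ESRP1 had 3 to 8 in a library and KRT5 at most 1. Their part in the cadherin values was not tested.

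The other classical type I genes also stayed under a mean of 0.5 FPKM. CDH4, the R-cadherin of neural tissue, had 3.63, 2.95 and 1.20 normalised CPM in the NC libraries against 1.48, 2.07 and 1.62 in the siRNA libraries, where NC library 3 was the lowest of all. After filterByExpr its log2 fold change was -0.58 ± 0.42 (edgeR adjusted p = 0.394), and -0.93 without NC library 3 (edgeR adjusted p = 0.0167). CDH15, the M-cadherin of muscle, had 2.13, 2.77 and 2.72 against 1.56, 1.69 and 1.92 normalised CPM, groups that did not overlap, with a log2 fold change of -0.56 ± 0.25 (edgeR adjusted p = 0.200), and -0.50 without NC library 3. CDH3, the P-cadherin of epithelia, had 1 to 4 counts in a library. CDH4, CDH15 and several genes named further on were chosen after their values were seen.

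Of the 13 type II cadherins, 11 had a count and 2 reached 0.5 FPKM. CDH18, a cadherin of the central nervous system, had 3.10, 5.0 and 9.36 normalised CPM in the NC libraries against 4.38, 3.61 and 4.57 in the siRNA libraries. NC library 3 was the highest, and the log2 fold change of -0.48 ± 0.38 (edgeR adjusted p = 0.449) became 0.05 without it and -0.78 without NC library 1. CDH24 had 5.05, 3.75 and 2.32 against 3.36, 2.76 and 2.95 normalised CPM, with overlapping groups and a log2 fold change of -0.29 ± 0.31 (edgeR adjusted p = 0.577), or -0.54 without NC library 3 and 0.0019 without NC library 1. CDH7, next in level, had a mean of 5.13 ± 0.591 normalised CPM in the NC libraries against 4.47 ± 0.823 in the others (SD, n = 3 each). CDH11, a cadherin of mesenchymal and bone-forming cells, had 2 counts in NC library 3 and 0 in the other 5 libraries. CDH6 had 0, 0 and 7 counts in the NC libraries against 7, 5 and 6 in the siRNA libraries, and CDH5, the endothelial cadherin, had 2 counts in each of siRNA libraries 1 and 2 and 0 elsewhere. CDH8 and CDH10 had 0 counts in each library.

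CDH23 and PCDH15 form the tip links of inner ear hair cells and lie apart from the classical genes. CDH23 had 11.4, 11.1 and 5.76 normalised CPM in the NC libraries against 6.96, 17.6 and 16.2 in the siRNA libraries. siRNA library 1 lay with NC library 3 rather than with its own group. The oligodendrocyte lineage marker SOX10 had 13, 8 and 4 counts in the NC libraries, 1 in siRNA library 1 and 35 and 33 in siRNA libraries 2 and 3, while OLIG2 of the same list had 15 to 30 counts in each library with siRNA library 1 at 26, and OLIG1 had 0. Their part in the CDH23 values was not tested. For CDH23 the log2 fold change was 0.53 ± 0.39 (edgeR adjusted p = 0.415), 0.28 without NC library 3, 0.30 without siRNA library 2 and 0.85 without siRNA library 1. PCDH15 had 3.01, 4.82 and 6.40 against 3.20, 4.07 and 2.51 normalised CPM, with a log2 fold change of -0.55 ± 0.33 after filterByExpr (edgeR adjusted p = 0.309), or -0.27 without NC library 3. CDH17, of the 7D class, had 1 to 7 counts in a library and CDH16, the other gene of that class, had 0.

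**Figure D3:**
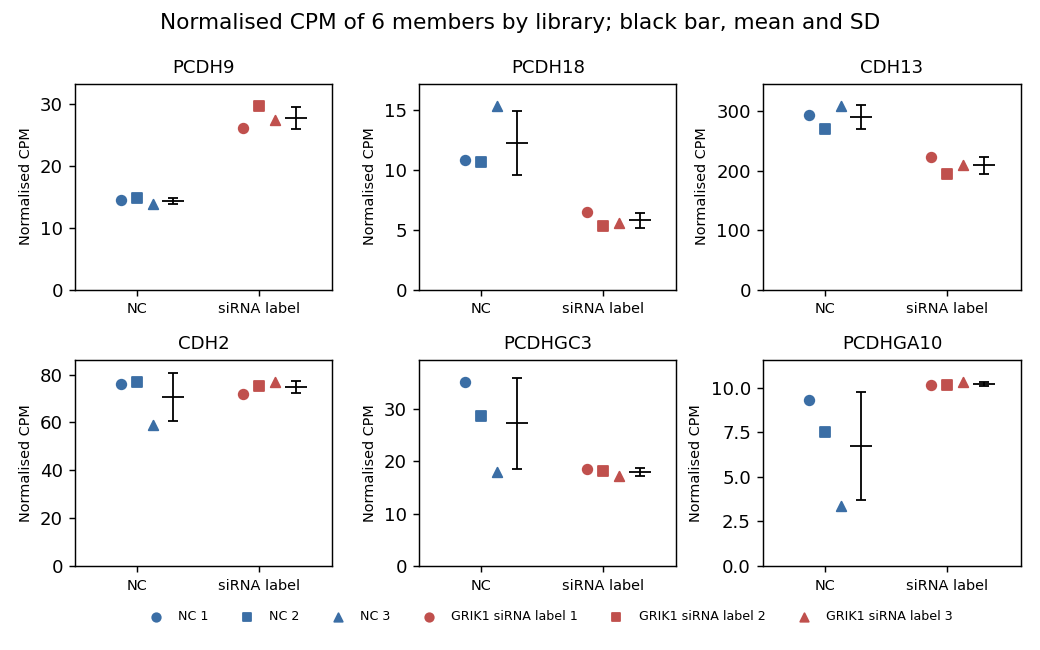
Normalised CPM of 6 members in each library (blue, NC; red, libraries labelled GRIK1 siRNA; the shape gives the library number; black, mean and SD of 3 libraries), with axes from 0. PCDH9, PCDH18, CDH13 and PCDHGA10 have groups that do not overlap, and NC library 3 is the lowest NC library for CDH2, PCDHGC3, PCDHGA10 and, by a small margin, PCDH9.

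The remaining non-clustered protocadherins gave no call with all 6 libraries. PCDH7, a delta1 protocadherin, had 15.9, 13.1 and 10.2 normalised CPM in the NC libraries against 10.7, 10.1 and 10.4 in the siRNA libraries. NC libraries 1 and 2 lay above the rest, the log2 fold change was -0.32 ± 0.19 (edgeR adjusted p = 0.312), and without NC library 3 it was -0.48 (edgeR adjusted p = 0.00762), but without NC library 1 it was -0.16 (edgeR adjusted p = 0.591). PCDH1, the third delta1 gene, had 2.57, 1.07 and 0.960 against 2.74, 3.38 and 2.51 normalised CPM and a log2 fold change of 0.91 ± 0.40 after filterByExpr (edgeR adjusted p = 0.198), or 0.65 without NC library 3. Within the delta1 group PCDH9 and PCDH7 thus had log2 fold changes of opposite sign, though that of PCDH7 did not pass the test with all libraries. PCDH12, an endothelial protocadherin, had means of 1.47 ± 0.497 and 1.32 ± 0.214 normalised CPM. Of the delta2 genes other than PCDH18, PCDH10 had 4 to 9 counts in a library, PCDH17 had 2 to 9, PCDH19 had at most 3 and PCDH8 had 0 in each.

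The 54 clustered protocadherins occupy neighbouring parts of chromosome 5 on the plus strand. Chromosome 5 as a whole holds 61 of the 88 members, among them genes outside the clusters such as CDH6 and CDH18. The cluster was used unevenly from one end to the other. Of the 16 alpha genes 12 had 0 counts in each library, and the remaining 4 had 5 counts in all, of which PCDHA3 had 2. Of the 16 beta genes 15 had a count, but PCDHB1, PCDHB2 and PCDHB3 at the alpha end had no more than 2 in any library and PCDHB4 had 0. All 22 gamma genes had a count. PCDHGC3, of the C type that neurons express without the promoter choice of the other genes, was the highest clustered gene, followed by PCDHGA10.

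**Figure D4:**
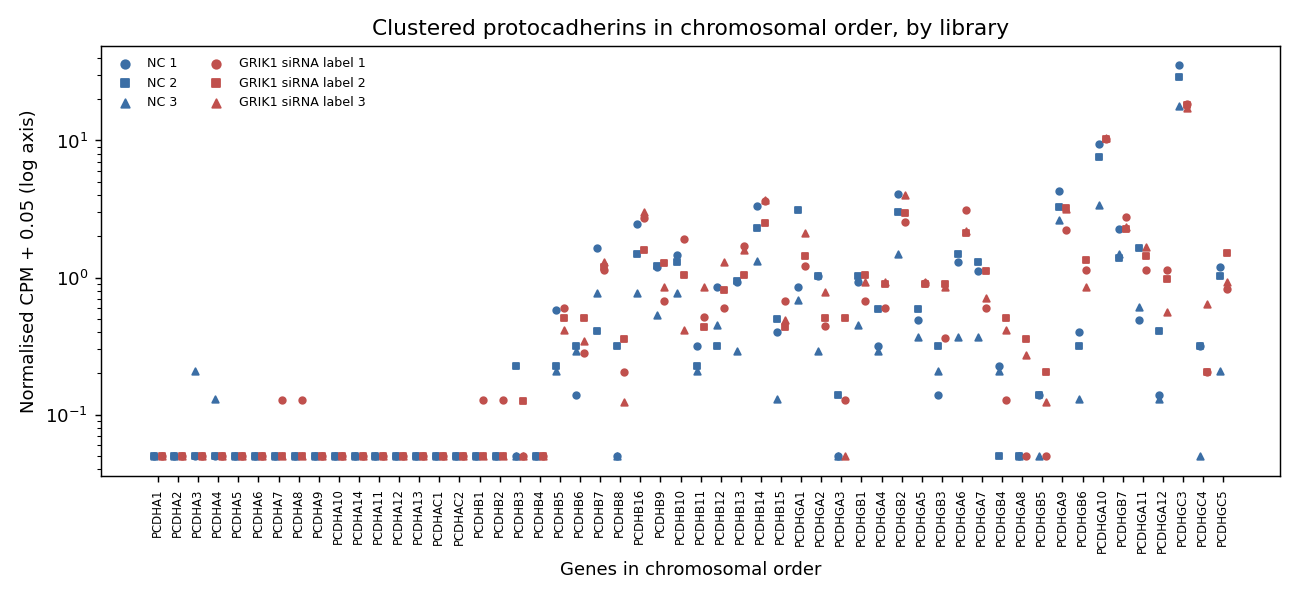
Normalised CPM, plus 0.05 so that 0 can be drawn, of the 54 clustered protocadherins in chromosomal order, on a log axis (blue, NC; red, libraries labelled GRIK1 siRNA; the shape gives the library number). The alpha genes lie on the floor in nearly each library, the beta genes rise from PCDHB5 onwards, and PCDHGC3 is the highest at 17.2 to 35.2.

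The gamma genes overlap, which bears on each of their values. By the exons of GENCODE 29, the share of exonic bases that a gamma gene does not share with another gene ran from 35.6% for PCDHGB4 to 72.4% for PCDHGA6, and it was 59.8% for PCDHGC3. Whether the counting used strand, and how it treated reads on shared exons, is not given in the sources used here. The alpha genes share exons as well, with 43.4% (PCDHA2) to 78.7% (PCDHA4) not shared, and 0% for the pseudogene PCDHA14. Their low counts may therefore leave out reads on shared exons. PCDHGA8 had 0, 0, 0, 0, 4 and 3 counts in the 6 libraries beside 224 to 397 for PCDHGC3, so reads on the constant exons were not counted on every gene that holds them. The FPKM divides by the whole exonic size, which gives a low estimate where reads on shared exons were not counted for a gene. Per base of unshared exon PCDHGC3 stood at 6.99, PCDHGA10 at 1.93, PCDHGA9 at 1.20 and PCDHGB2 at 1.16 on the FPKM scale, against 4.18, 1.30, 0.63 and 0.625 by the whole size, and the order of these 4 was the same on both scales. PCDHGA10 then lay above PCDH18, which shares no exonic bases and stayed at 1.33, the reverse of their order by the whole size.

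The promoters of these genes are known for a short conserved element with the core CGCT. Only the letters of this core were searched for, and not the whole element. They are shown here since most clustered members hold them while differing in level. RefSeq promoter windows (GRCh38.p14) matched 68 of the 88 members, 47 of them clustered. On the sense strand, CGCT occurred in the 100 bases before the start of 44 of 47 clustered members (93.6%), against 32.2% of 27305 genes and 11 of 21 other members (52.4%). Counted on both strands (CGCT or AGCG) it was again 93.6% of the clustered members, 48.8% of all genes and 81.0% of the other members. A gene with several RefSeq windows was counted if any window held the letters, and PCDHGB1, PCDHGB4, PCDHGB5, PCDHGB6 and PCDHGC4 each have a further window without them. The clustered genes without the letters CGCT in any window were PCDHA9, PCDHB8 and PCDHGB2, and PCDHGB2 was still among the 6 clustered genes that reached 0.5 FPKM. The letters were held by 12 of 13 matched alpha genes, a family with almost no counts, by 13 of 14 beta genes and by 19 of 20 gamma genes.

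In the beta genes the letters before the core were also shared. GGCGCT, which includes CGCT, was found on either strand in 12 of 14 beta promoters (85.7%) against 10.6% of all genes. The beta genes shown are the 2 that reached 0.5 FPKM, PCDHB14 and PCDHB16, and PCDHB13, whose groups did not overlap. The windows are chr5:141213819-141213918, chr5:141223243-141223342 and chr5:141182287-141182386 on the plus strand, written 5′ to 3′ and ending at the base before the deposited start, with CGCT in capitals.
PCDHB13: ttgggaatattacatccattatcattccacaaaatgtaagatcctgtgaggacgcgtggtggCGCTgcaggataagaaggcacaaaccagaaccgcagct
PCDHB14: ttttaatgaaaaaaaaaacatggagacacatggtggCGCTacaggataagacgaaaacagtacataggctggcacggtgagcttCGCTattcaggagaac
PCDHB16: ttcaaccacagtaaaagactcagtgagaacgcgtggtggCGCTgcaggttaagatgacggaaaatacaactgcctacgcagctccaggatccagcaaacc

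In some gamma genes a further string, GGACTCT, stood a few bases before the core. It was present on either strand (GGACTCT or AGAGTCC) in 5 of 20 gamma promoters (25.0%) and in 1.48% of all genes, and the 5 were PCDHGA5, PCDHGA6, PCDHGA9, PCDHGA10 and PCDHGC3. These 5 are printed with PCDHGB6 and PCDHGB7, whose groups did not overlap and which lack it. The windows on the plus strand are chr5:141364062-141364161, chr5:141373791-141373890, chr5:141402678-141402777, chr5:141412887-141412986, chr5:141407921-141408020, chr5:141417577-141417644 and chr5:141475866-141475946, with CGCT and GGACTCT in capitals. Those of PCDHGB7 and PCDHGC3 are shorter, since they end where the deposited gene begins.
PCDHGA5: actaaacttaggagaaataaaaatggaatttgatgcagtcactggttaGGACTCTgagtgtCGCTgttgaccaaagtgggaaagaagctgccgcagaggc
PCDHGA6: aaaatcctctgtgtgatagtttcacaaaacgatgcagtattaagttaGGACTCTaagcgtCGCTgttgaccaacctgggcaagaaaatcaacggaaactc
PCDHGA9: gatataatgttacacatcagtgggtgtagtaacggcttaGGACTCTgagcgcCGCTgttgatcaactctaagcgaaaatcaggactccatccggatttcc
PCDHGA10: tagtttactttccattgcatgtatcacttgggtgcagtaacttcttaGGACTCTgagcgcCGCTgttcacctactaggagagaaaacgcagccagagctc
PCDHGB6: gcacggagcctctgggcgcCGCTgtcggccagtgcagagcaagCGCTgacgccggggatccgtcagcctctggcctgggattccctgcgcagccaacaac
PCDHGB7: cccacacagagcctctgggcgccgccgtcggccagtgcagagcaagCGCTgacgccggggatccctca
PCDHGC3: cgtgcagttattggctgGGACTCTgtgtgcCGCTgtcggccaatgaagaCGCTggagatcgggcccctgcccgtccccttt

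PCDHGC3 and PCDHGA10, the highest clustered genes, hold both, as do PCDHGA5 (mean 0.113 FPKM) and PCDHGA6 (0.222 FPKM), while PCDHGB2 (0.625 FPKM) holds neither. For comparison the window of PCDH18, outside the clusters and on the minus strand at chr4:137532495-137532594, also held CGCT, in 2 places.
PCDH18: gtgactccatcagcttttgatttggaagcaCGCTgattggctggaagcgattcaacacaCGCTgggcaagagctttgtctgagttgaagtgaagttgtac

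A match is a description of letters and not of binding. The E-box CACCTG or CAGGTG, the letters bound by repressors of E-cadherin, was found in the 250 bases before the start of 8 of the 68 matched members (11.8%), against 20.6% of all genes.

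PCDHGC3 had 35.2, 28.8 and 17.9 normalised CPM in the NC libraries against 18.5, 18.2 and 17.2 in the siRNA libraries. NC libraries 1 and 2 lay well above the rest, while NC library 3 lay among the siRNA libraries. The log2 fold change was -0.60 ± 0.24 (edgeR adjusted p = 0.173), and -0.83 without NC library 3 (edgeR adjusted p = 1.00e-05), but -0.37 without NC library 1 (edgeR adjusted p = 0.294). PCDHGA10 had 9.30, 7.50 and 3.36 against 10.2, 10.1 and 10.3 normalised CPM. Its groups did not overlap, but the log2 fold change of 0.61 ± 0.33 did not pass (edgeR adjusted p = 0.287) and was 0.28 without NC library 3 and 0.92 without NC library 1. PCDHGA9, at 4.25, 3.22 and 2.56 against 2.19, 3.15 and 3.09, and PCDHGB2, at 3.99, 2.95 and 1.44 against 2.50, 2.92 and 3.98, had groups that overlapped. Their log2 fold changes were -0.24 ± 0.28 and 0.18 ± 0.39 (edgeR adjusted p = 0.602 and 0.795), and -0.41 and -0.14 without NC library 3. With each library left out in turn, the value of PCDHGA9 ran from -0.41 to -0.033 (without NC library 1), with -0.094 without siRNA library 1, and that of PCDHGB2 from -0.14 to 0.53 (without NC library 1).

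The low gamma genes given next were picked after seeing that their groups did not overlap, and others had the opposite sign. Of the latter, PCDHGA2 had 21 against 25 summed counts (ratio 0.746, 0.397 to 1.39) and PCDHGA7 had 30 in either group (0.888, 0.517 to 1.52). PCDHGB6 had 4, 3 and 1 counts in the NC libraries against 14, 17 and 11 in the siRNA libraries. Each siRNA library lay above each NC library, and the summed counts, 42 against 8, gave a scaled ratio of 4.66 (exact 95% interval 2.16 to 11.5, counting error only) and of 3.42 (1.52 to 9.03) without NC library 3. The log2 fold change after filterByExpr was 2.17 ± 0.52 (edgeR adjusted p = 0.0620), and 1.74 without NC library 3 (edgeR adjusted p = 0.0185). With at most 4 counts in an NC library, PCDHGB6 entered this test only through the siRNA libraries, where it was high. No conclusion is drawn from its p-values for that reason. PCDHGA6 had 1.24, 1.43 and 0.320 against 3.05, 2.07 and 2.14 normalised CPM, with a log2 fold change of 1.29 ± 0.48 (edgeR adjusted p = 0.147), or 0.85 without NC library 3. It too entered the test through the siRNA libraries, since NC library 3 fell short of the filter. PCDHGA5 and PCDHGB7, whose groups also did not overlap, had log2 fold changes of 0.98 and 0.53 (edgeR adjusted p = 0.151 and 0.275), and 0.80 and 0.44 without NC library 3. PCDHGA5, with 5, 6 and 4 counts in the NC libraries against 11, 11 and 12, also entered the test only through the siRNA libraries. Below the count that filterByExpr asks for, PCDHGA12 had 33 against 6 summed counts (ratio 4.88, 2.02 to 14.3), PCDHGB3 26 against 6 (3.85, 1.55 to 11.4) and PCDHGA4 30 against 12 (2.22, 1.10 to 4.76), each without overlap between groups. Without NC library 3 these ratios were 3.77 (1.46 to 12.4), 3.71 (1.29 to 14.6) and 1.9 (0.881 to 4.56). Overlap-free groups were common among all genes, as given above, and these genes were picked for this pattern.

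Summed over the 19 gamma A and gamma B genes, the normalised CPM was 26.7, 26.4 and 12.3 in the NC libraries against 28.5, 31.9 and 32.3 in the siRNA libraries. The sums did not overlap, but NC library 3 held less than NC libraries 1 and 2 by more than those differed from the siRNA libraries. The ratio of the summed counts was 1.44 (1.32 to 1.58), and 1.17 (1.06 to 1.29) without NC library 3. The 3 gamma C genes summed to 36.6, 30.0 and 18.1 against 19.5, 19.8 and 18.6. For all 22 gamma genes the sums were 63.3, 56.4 and 30.4 against 48.0, 51.8 and 51.0, so that the siRNA libraries lay between the NC libraries. Of the 13 gamma genes kept by filterByExpr, 10 had a log2 fold change above 0 (median 0.46) with all libraries. Without NC library 3 these were 6 (median -0.04), so no direction for the whole gamma family held without that library. The 11 gamma A and B genes among them had medians of 0.53 with all libraries and 0.28 without NC library 3, with 9 and 6 above 0. For the 2 gamma C genes the medians were -0.07 and -0.44.

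The split of the gamma counts among genes is described next, within the uncertainty on reads from shared exons given above. PCDHGC3 took 55.6%, 50.9% and 58.9% of the gamma counts in the NC libraries, as against 38.6%, 35.2% and 33.7% in siRNA libraries 1, 2 and 3. The exact 95% intervals ran from 47.0% to 63.9% over the NC libraries and from 30.2% to 42.6% over the siRNA libraries, and no interval of one group reached one of the other. The means were 55.2 ± 4.02% and 35.8 ± 2.53% (SD, n = 3 each). NC library 3 came to its share by other levels than NC libraries 1 and 2. Its PCDHGC3, at 17.9 normalised CPM, lay among the siRNA libraries (17.2 to 18.5) and its gamma A and B sum was low, at 12.3 against 28.5 to 32.3, whereas NC libraries 1 and 2 had PCDHGC3 at 35.2 and 28.8 and a sum of 26.7 and 26.4, near the 28.5 of siRNA library 1. The share was chosen after its values were seen and is given with no test.

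**Figure D5:**
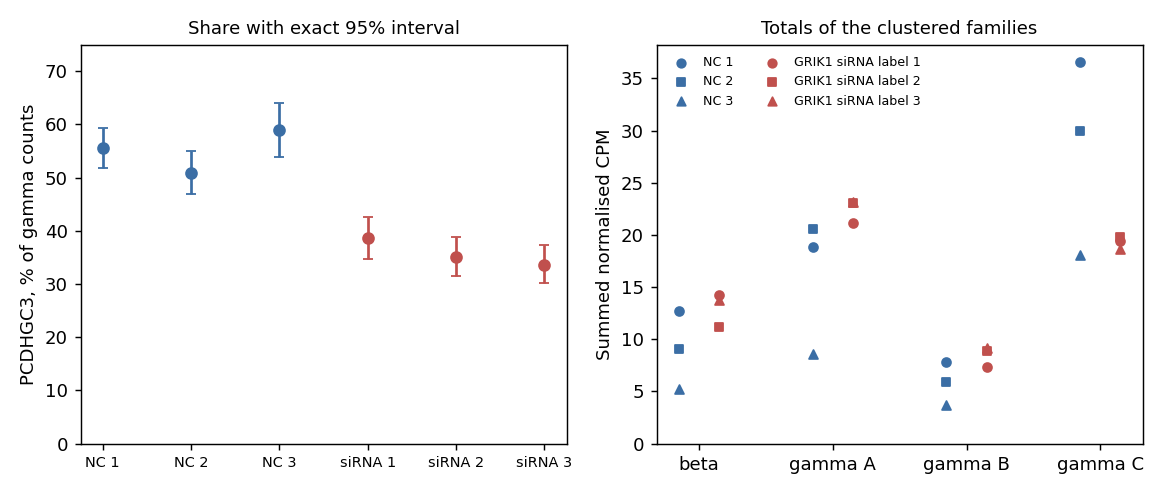
Left, PCDHGC3 as a percentage of the counts on the 22 gamma genes in each library, with its exact 95% binomial interval (blue, NC; red, libraries labelled GRIK1 siRNA). Right, summed normalised CPM of the beta, gamma A, gamma B and gamma C genes by library. The share was 50.9% to 58.9% in the NC libraries against 33.7% to 38.6% in the others, and NC library 3 has the lowest sum in each family.

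The beta genes summed to 12.8, 9.11 and 5.20 normalised CPM in the NC libraries against 14.2, 11.2 and 13.8 in the siRNA libraries, which overlap through NC library 1. PCDHB14 had 3.28, 2.23 and 1.28 against 3.59, 2.46 and 3.61, with a log2 fold change of 0.52 ± 0.36 (edgeR adjusted p = 0.398), or 0.23 without NC library 3 and 0.88 without NC library 1. PCDHB16 had 2.39, 1.43 and 0.720 against 2.66, 1.54 and 2.95, with 0.66 ± 0.46 (edgeR adjusted p = 0.390), or 0.32 without NC library 3. In both, siRNA library 2 lay near NC library 2, and NC library 3 was lowest. PCDHB13, with 0.886, 0.893 and 0.240 against 1.64, 0.998 and 1.55 normalised CPM, had groups that did not overlap and a log2 fold change of 1.06 ± 0.49 after filterByExpr (edgeR adjusted p = 0.209), or 0.64 without NC library 3. PCDHB13 entered that fit through the siRNA libraries, since NC library 3 fell short of the filter. PCDHB11, with 22 summed counts against 7 (ratio 2.79, 1.15 to 7.73, and 2.51, 0.928 to 8.49, without NC library 3), did not overlap either.

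Genes that act with the members were counted from 6 lists, beside the 3.08% of all genes that passed with all libraries and the 35.2% that passed without NC library 3. With any other library left out, no gene of the table passed, so the calls on NIPBL, PTK2 and TWIST1 were lost as well. Of 14 tested catenins and other cytoplasmic partners of cadherins (18 listed), 0 passed an adjusted p of 0.05 in edgeR, and the median log2 fold change was 0.02. CTNNA1, which links catenins to actin, and IQGAP1 were the highest by FPKM, with log2 fold changes of 0.29 ± 0.13 and 0.37 ± 0.12 (edgeR adjusted p = 0.208 and 0.122). Without NC library 3, 4 of the 14 rose and 3 fell, CTNNA1 and IQGAP1 among the former, with log2 fold changes of 0.21 and 0.38 (edgeR adjusted p = 0.00191 and 7.95e-06). The 3 that fell were CTNNB1, PTPN1 and PTPRM, with log2 fold changes of -0.24, -0.40 and -0.41. Of 9 tested genes of the cadherin superfamily outside the CDH and PCDH names (26 listed), 0 passed, with a median of 0.32, and 4 rose and 2 fell without NC library 3. FAT1 and CLSTN1, the highest, had log2 fold changes of 0.16 ± 0.33 and 0.01 ± 0.28, and of -0.16 and -0.27 without NC library 3. These were the 2 that fell without it. The 4 that rose were CELSR3, CELSR1, CLSTN3 and DSG2, with log2 fold changes of 0.98, 0.56, 0.24 and 0.22 in that fit. Of 12 tested sheddases and proteases that process cadherins (16 listed), 0 passed, with a median of -0.01, and 2 rose and 5 fell without NC library 3 (median -0.19). MMP2 and MMP14 led them in level, and NC library 3 was low in both, at 1788 normalised CPM for MMP2 against 3178 and 3094 in NC libraries 1 and 2. Their log2 fold changes were -0.06 ± 0.23 and 0.16 ± 0.34, and -0.28 and -0.16 without that library. Unadjusted p-values are far more common than adjusted calls in these data, since 25.1% of all genes had one under 0.05.

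Regulators of the clustered promoters and of their silencing all reached 0.5 FPKM, and 1 of 18 rose while 0 fell, with a median log2 fold change of 0.18. Without NC library 3, 8 rose and 0 fell (median 0.14). The gene that rose with all libraries was NIPBL, which loads cohesin on DNA. It had 77.9, 78.2 and 65.9 normalised CPM in the NC libraries against 122, 122 and 118 in the siRNA libraries, without overlap and with a log2 fold change of 0.70 ± 0.12 (edgeR adjusted p = 0.0352), or 0.63 without NC library 3. RAD21, a cohesin subunit, and PDS5A had log2 fold changes of -0.14 ± 0.13 and -0.11 ± 0.11 (edgeR adjusted p = 0.521 and 0.564), and of -0.04 and -0.05 without NC library 3.

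Among 13 cytoplasmic partners of protocadherins 1 rose and 0 fell, with a median of -0.10, and 4 rose and 5 fell without NC library 3 (median -0.07). The gene that rose with all libraries was PTK2, the focal adhesion kinase that gamma and alpha protocadherins bind. Its normalised CPM was 100.05, 99.8 and 94.3 in the NC libraries against 139, 144 and 147 in the siRNA libraries, with a log2 fold change of 0.55 ± 0.11 (edgeR adjusted p = 0.0434), or 0.52 without NC library 3. The highest of the list by FPKM, BRK1, a subunit of the WAVE complex, and SET, a phosphatase inhibitor, were both lower in the siRNA libraries without overlap. BRK1 had 201, 209.8 and 368 normalised CPM in the NC libraries against 155, 166 and 166 in the siRNA libraries. SET had 449.7, 449.5 and 734 against 368, 383 and 388. Their log2 fold changes were -0.68 ± 0.24 and -0.52 ± 0.21 (edgeR adjusted p = 0.141 and 0.181), and -0.34 and -0.24 without NC library 3 (edgeR adjusted p = 4.08e-05 and 0.000555), which was the highest library for both. Of 8 tested transcription factors that act on CDH1 or CDH2 (10 listed), 0 rose and 1 fell, with a median of -0.18, and 0 rose and 3 fell without NC library 3 (median -0.07). TWIST1, a repressor of E-cadherin, fell from 74.0, 73.1 and 69.9 normalised CPM in the NC libraries to 42.1, 40.8 and 38.8 in the siRNA libraries, a log2 fold change of -0.84 ± 0.11 (edgeR adjusted p = 0.0240), or -0.86 without NC library 3. SNAI2, of the same function, had 210.3, 218 and 214 against 147, 159 and 156, without overlap (log2 fold change -0.47 ± 0.11, edgeR adjusted p = 0.0618, and -0.47 without NC library 3 with an edgeR adjusted p of 1.14e-06). CDH1 had 24 summed counts in each group beside these values.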

How the data were processed

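RNA of 3 NC libraries and 3 libraries labelled GRIK1 siRNA was sequenced. The authors deposited whole-number counts per gene and FPKM, which equal the count divided by exonic size and library total (100% of values within 0.005). The submitters' processing notes list cutadapt 1.9.1, HISAT2, HTSeq and GRCh38. Counting mode and strand are not given in the sources used here. Each library was assigned by its label, and 0 value columns were left unassigned. No libraries were pooled. Some marker genes are not reported here.

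The counts were tested with the quasi-likelihood test of edgeR 4.0.16 under R 4.3.3 after TMM scaling, with no block, over 15870 genes with a mean FPKM of at least 0.5 and with Benjamini-Hochberg adjustment. DESeq2 1.42.0 and limma 3.58.1 were alternatives, as were other filters, scaling, robust fitting and leaving out each library. Intervals are exact 95% binomial, for counting error only. Exons came from GENCODE 29 and promoters from RefSeq (GRCh38.p14).

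The members and lists were chosen with earlier results of these data known. Named members are those past the adjusted p, the 12 highest by FPKM, the 5 largest changes in each direction among those without overlap, the highest of each class, and CDH1, CDH2, CDH11 and CDH13, beside partner genes past the adjusted p and the 2 highest of each list. Other members named were chosen after their values were seen.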

Additional observations from a re-analysis of the deposited data

How the results depend on the processing

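The count of members with an adjusted p under 0.05, 2 with edgeR, was 1 (PCDH18, since PCDH9 was not tested) at a mean of at least 1 FPKM, beside 4.09% of all genes, and 0 with limma-trend on log2(FPKM + 1) and on log2(FPKM + 0.1), beside 2.56% and 1.76%. Beside these zeros, 4 of 14 members had an unadjusted p under 0.05 in edgeR, and DESeq2 called 3, adding CDH13, beside 10.6% of all genes. Leaving out each library in turn gave 0 to 5 members at 0.5 FPKM and 0 to 7 after filterByExpr (the latter chosen after seeing the data), where only the fits without NC library 3 gave any. Without any other library 0 genes of the whole table passed, and without NC library 3 these were 35.2% and 37.1% of all genes. The count past the fold threshold as well, 1, became 2 with no filter (PCDH18 and PCDHGB6, beside 1.95% of all genes), 2 at a fold of 1.5 (2.96%), and 0 in limma-trend with either pseudocount (0.712% and 0.788%). With each library left out it was 0 to 1. In the fits without NC library 3 it was 0 at 0.5 FPKM, beside 3.09% of all genes, and 1 after filterByExpr, which was PCDHGB6 and not PCDH18, beside 4.09%, and without any other library 0 genes of the whole table passed. PCDHGB6 entered the filterByExpr fit only through the siRNA libraries, where it was high. Members whose groups do not overlap numbered 4, and 14 with no filter, 10 after filterByExpr and 4 to 8 with each library left out, beside 38.4%, 23.5%, 40.0% and 43.3% to 56.5% of all genes. By CPM without length, 39 members reached 0.5, against 14 by FPKM. Directions reversed without NC library 3 for CDH18 (0.050, and 0.046 after filterByExpr), CDH2 (-0.031 and -0.035) and PCDHGB2 (-0.14 and -0.14), without siRNA library 3 for PCDHGB2 (-0.036 and -0.037), and without NC library 1 for CDH24 (0.0019). With either filter, the ranges with each library left out were -0.78 (-0.79 after filterByExpr) to 0.050 for CDH18, -0.035 to 0.14 for CDH2, -0.54 to 0.0019 for CDH24 and -0.14 to 0.53 for PCDHGB2. The cause was not tested. Over the single members and settings, 234 values kept their direction and side of the threshold, 28 became weaker, 7 stronger and 9 reversed.

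The replicate numbers did not pair the libraries: same-numbered libraries correlated at -0.070, 0.044 and -0.043 in their deviations from the group means. With the replicate number as a block, 0 members and 0 of all genes passed the adjusted p, and 0 passed with the fold, also after filterByExpr (added after seeing the data), with a log2 fold change of 0.95 for PCDH9 (edgeR adjusted p = 0.0923) and -1.07 for PCDH18 (edgeR adjusted p = 0.102).

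Depth limits the low members: 55 of 88 did not reach the counts filterByExpr asks for, and shared exons leave the split of reads among gamma genes uncertain.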

Other observations

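CDH20, a type II cadherin chosen after its values were seen, had 9, 3 and 10 counts in NC libraries 1, 2 and 3 and 4, 2 and 1 in siRNA libraries 1, 2 and 3. The scaled ratio of its summed counts was 0.283 (exact 95% interval 0.102 to 0.685, counting error only) and 0.333 (0.111 to 0.917) without NC library 3, with groups that overlap through NC library 2.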
